A study of Homo sapiens with 2 samples.

Results

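Interferon regulatory factors (IRF) and signal transducers and activators of transcription (STAT) were described in the established human glioblastoma line U251, exposed for 6 h to 5 µM G-TPP or to the solvent DMSO. The genes were chosen by name, with earlier results of these data known, as IRF1, IRF2, IRF3, IRF7, IRF9, STAT2, STAT3, STAT5B and STAT6. A gene counted as measured where an array probe set carried its symbol and no other. This held for 8 of the 9 genes, each with 1 probe set, out of 18417 named genes; STAT2 was not analysed here. G-TPP is a Gamitrinib, an Hsp90 inhibitor joined to a mitochondria-seeking phosphonium cation, and both conditions shared the line, the high-glucose medium and the exposure time. There was 1 G-TPP array and 1 DMSO array of total RNA, so differences below have no replicate check and come without errors or p-values, and "higher" and "lower" hold for this pair of arrays.

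IRF and STAT proteins carry cytokine and innate immune signals to the nucleus. Sensors of foreign nucleic acid activate the kinases TBK1 and IKBKE, which phosphorylate IRF3 and IRF7, the factors that turn on type I interferon genes. Interferon and interleukin receptors activate Janus kinases, which phosphorylate STAT proteins; STAT2 and IRF9 belong to the complex ISGF3, which binds the interferon-stimulated response element (ISRE), while STAT dimers bind the gamma-activated site (GAS). IRF1 is itself made in response to cytokines, and IRF2 competes with it at the same DNA element. In glioblastoma STAT3 is known as a driver of mesenchymal expression states. These proteins are switched on mainly by phosphorylation, which an RNA array does not measure.

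A pair of DNA windows is shown first because both hold a GAS match while the genes behind them differed in their values. Promoter windows of 250 bases before to 50 bases after the gene start were matched in RefSeq (GRCh38.p14) for 6 of the 9 genes, IRF1, IRF9, STAT2, STAT3, STAT5B and STAT6. They were searched on both strands for the GAS letters TTCNNNGAA, for TTC and GAA with 4 bases between them, the wider spacing that STAT6 prefers, and for the ISRE letters, GAAA repeated after a gap of 2 bases. Capitals mark the GAS match, and each window is written 5′ to 3′ along its gene. The IRF1 window is chr5:132490724-132491023 on the minus strand and the IRF9 window is chr14:24161015-24161314 on the plus strand.
IRF1: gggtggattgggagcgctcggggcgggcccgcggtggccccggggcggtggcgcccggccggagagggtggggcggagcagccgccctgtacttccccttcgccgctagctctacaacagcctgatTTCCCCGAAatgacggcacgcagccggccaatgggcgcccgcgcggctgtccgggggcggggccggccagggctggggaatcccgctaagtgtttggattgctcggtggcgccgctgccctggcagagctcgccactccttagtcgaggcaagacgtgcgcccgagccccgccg
IRF9: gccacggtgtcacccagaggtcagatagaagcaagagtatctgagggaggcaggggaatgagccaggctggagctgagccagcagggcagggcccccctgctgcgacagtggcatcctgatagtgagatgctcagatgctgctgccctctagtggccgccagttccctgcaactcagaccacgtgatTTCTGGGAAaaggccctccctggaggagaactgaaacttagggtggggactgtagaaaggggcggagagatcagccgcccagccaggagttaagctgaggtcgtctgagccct
The IRF1 match, TTCCCCGAA, spans bases -124 to -116 from the gene start, and the IRF9 match, TTCTGGGAA, spans bases -63 to -55. The windows of STAT2, STAT3, STAT5B and STAT6 held none of the 3 motifs, and neither IRF1 nor IRF9 held the wider spacing or the ISRE letters. Of all 35116 promoter windows in the table, 7.66% held the GAS letters, 6.44% the wider spacing and 3.57% the ISRE letters. The letters differ in spacing alone between the first pair of motifs, and a match is a description of sequence, not of binding.

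Of the 8 genes IRF1 was the 1 with a log2 difference, G-TPP minus DMSO, above 0, and IRF2 had the lowest. The probe set of IRF1 had an intensity of 429 on the G-TPP array and 231 on the DMSO array, a log2 difference of 0.89 or 1.86-fold higher. IRF2, its competitor, had 992 on the G-TPP array and 1510.0 on the DMSO array, a log2 difference of -0.61 or 1.52-fold lower. The log2 differences of these antagonists lay 1.5 apart, which was the whole span of the 5 IRF genes, against a span of 0.10 for the 3 measured STAT genes.

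Intensities here are linear values from RMA, which equalises the distributions of arrays, so a change in total RNA per cell would not show; in bulk RNA fewer cells of a type and less RNA per cell also cannot be told apart. Genes were kept where the brighter array reached 239.2, the median of that brighter value over all probe sets, which left 11091 genes. IRF1 passed this filter by its G-TPP value alone, as its DMSO value was below it, so the filter fixed its direction among kept genes. Both values of IRF1 were above 173.6 on the G-TPP array and 172.6 on the DMSO array, the 95th percentiles of 341 olfactory receptor genes, taken as genes that this line is unlikely to express. Clearing that level does not show expression, as some immune and endothelial markers, SPI1 and CLDN5 among them, cleared it too. The standard deviation of the olfactory receptors' log2 differences was 0.19, and probe sets of 1 gene in 296 non-identical pairs scattered by 0.18; both guides leave out differences between cultures.

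**Figure D1:**
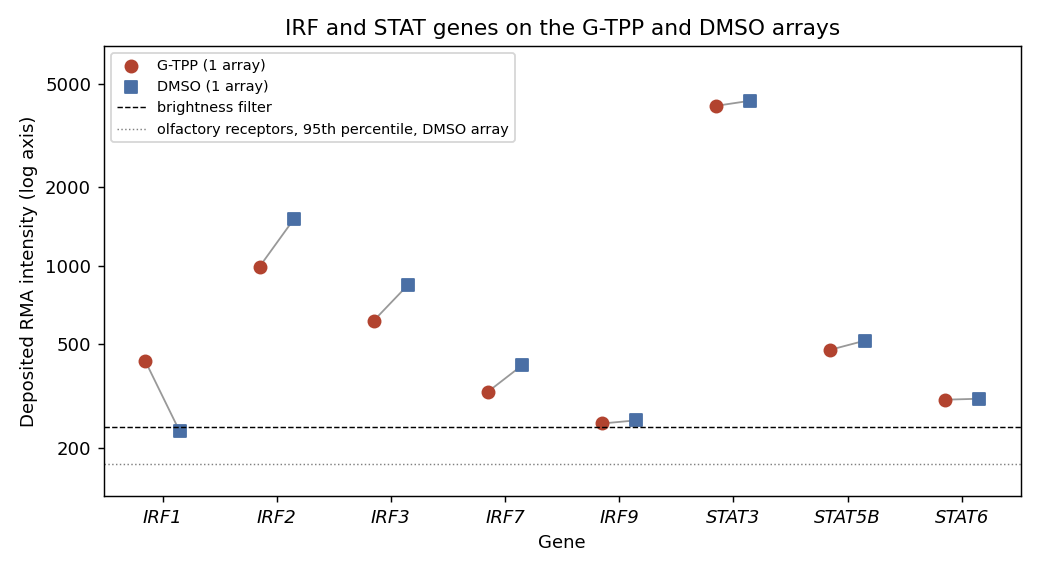
Deposited RMA intensity (log axis) of the 8 measured IRF and STAT genes, with the G-TPP array as circles, the DMSO array as squares and 1 array per condition. IRF1 stands higher with G-TPP at 429 against 231, IRF2, IRF3 and IRF7 stand lower, and STAT3 is bright on both arrays at 4119.9 with G-TPP and 4310.5 with DMSO.

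Set among all kept genes, 4 of the 8 genes ranked between the percentiles 38.9 and 54.3, while IRF1 ranked at 96.5 and IRF7, IRF3 and IRF2 at 12.1, 6.09 and 2.88. Of the 8 measured genes, 1 was at least 1.5-fold higher, where 7.37% of kept genes were, and 1 was at least 1.5-fold lower, where 3.23% were; 1 is the smallest count above 0 that 8 genes can give. None reached 2-fold, a size at which 2.8% of kept genes were higher and 0.55% lower. IRF1 ranked 387th from the top of 11091 kept genes, and IRF2 ranked 319th from the bottom. As IRF1 passed the filter by its G-TPP value alone, it could only stand above 0 among kept genes, and its rank is no support for a direction. The log2 difference was below 0 in 7 of the 8 genes and in 55.9% of kept genes. Its median was -0.09 over the 8 genes and -0.04 over the kept genes, whose standard deviation was 0.43.

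**Figure D2:**
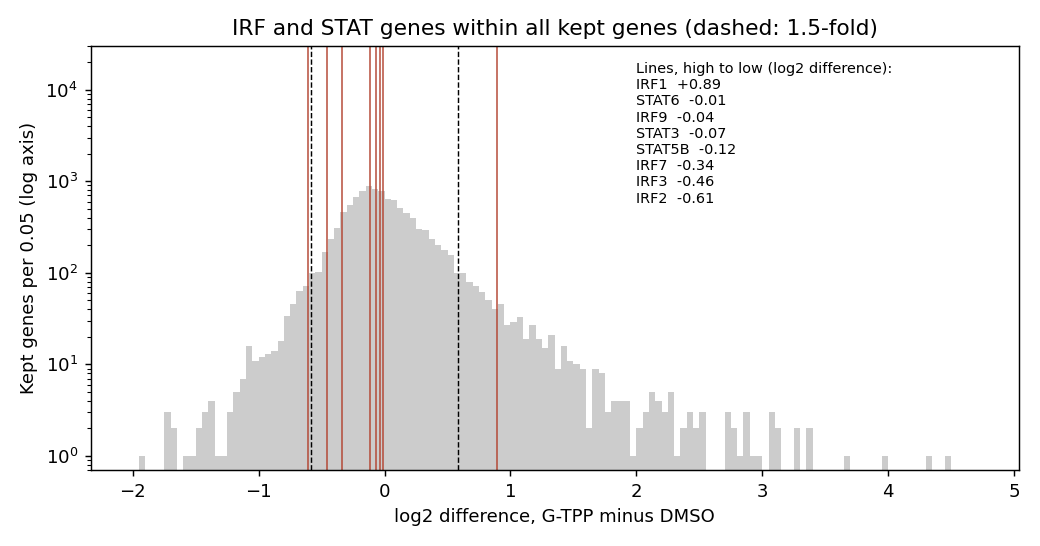
Histogram of the log2 difference, G-TPP minus DMSO, of the 11091 kept genes in steps of 0.05 with a log count axis; each line is 1 measured IRF or STAT gene and the dashed lines mark 1.5-fold. IRF1 at 0.89 lies out on the high side, IRF2 at -0.61 just past the low dashed line, and 4 genes lie close to 0.

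IRF3 and IRF7, the factors that open the interferon response to nucleic acid, were both lower with G-TPP and neither reached 1.5-fold. IRF3, which most cells make at all times, had 615 on the G-TPP array and 844 on the DMSO array, a log2 difference of -0.46 or 1.37-fold lower. This placed it 675th from the bottom of the kept genes. IRF7, which amplifies the response and is itself interferon-inducible, had 328 on the G-TPP array and 414 on the DMSO array, 1.26-fold lower. Together with IRF2 they had log2 differences between -0.61 and -0.34. With IRF9 at -0.04, 4 of the 5 IRF genes were below 0, where 55.9% of kept genes were.

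The machinery upstream of IRF3 and IRF7 held values in both directions. In the list of nucleic acid sensors, adaptors and kinases 16 of 22 genes asked for were kept; 4 were at least 1.5-fold higher (7.37% of all kept genes were) and 1 was at least 1.5-fold lower (3.23%), and the median log2 difference was 0.15. AZI2, an adaptor of TBK1, had 1817 on the G-TPP array and 853 on the DMSO array, 2.13-fold higher. TANK, another adaptor of TBK1, had 644 with G-TPP and 405 with DMSO, 1.59-fold higher. The receptor genes TLR4, for bacterial lipopolysaccharide, and TLR3, for double-stranded RNA, were 1.90-fold and 1.57-fold higher. MYD88, the adaptor of most Toll-like receptors, went the other way with 1023 on the G-TPP array and 1657 on the DMSO array, 1.62-fold lower. Of the kinases TBK1 had 1593 with G-TPP and 1110 with DMSO, a log2 difference of 0.52, and IKBKE had 291 with G-TPP and 289 with DMSO. IFNB1, the type I interferon gene that IRF3 and IRF7 switch on, stood at 43.0 on both arrays, under the olfactory receptor level.

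IRF9, the DNA-binding partner of ISGF3, hardly differed between the arrays. It had 248 on the G-TPP array and 255 on the DMSO array, a log2 difference of -0.04, and its rank among kept genes was at the percentile 50.4. It was the dimmest of the 8 genes on the G-TPP array. The immune marker SPI1 was brighter, with 291 on the G-TPP array and 335 on the DMSO array, though 8 of 13 measured immune markers were at or below the olfactory receptor level. A flat value so dim may be background and not an unchanged transcript, which was not tested. The GAS match in the IRF9 promoter window stood beside a log2 difference of -0.04, and that of IRF1 beside 0.89.

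Genes that ISGF3 is known to activate included a pair past 1.5-fold. Of 38 asked for, 22 were kept, 2 were at least 1.5-fold higher (7.37% of all kept genes were) and 0 at least 1.5-fold lower (3.23%), with a median log2 difference of 0.09 against -0.04 for all kept genes; 10 were at or below the olfactory receptor level on both arrays. TRIM5, a restriction factor against retroviral capsids, had 1015 on the G-TPP array and 452 on the DMSO array, 2.24-fold higher. SAMD9L, an antiviral and growth-restraining protein gene, had 582 with G-TPP and 312 with DMSO and was 1.86-fold higher, and its paralogue SAMD9 was 1.39-fold higher. IFI35 was 1.44-fold higher. In all, 13 of the 22 were above 0 and 9 below. Among the 9 were IFITM1, IFITM2 and IFITM3, at 1.24-fold, 1.36-fold and 1.34-fold lower. The classic interferon-induced genes MX1 and IFIT1 stayed under the olfactory receptor level on both arrays, at 147 and 79.1 with G-TPP and 154 and 107 with DMSO.

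Genes known as targets of IRF1 and interferon gamma lay on both sides of 0. Of 23 asked for, 10 were kept, 5 above 0 and 5 below, with a median log2 difference of -0.07. The 1 gene at least 1.5-fold higher, where 7.37% of all kept genes were, was WARS1, the cytosolic tryptophanyl-tRNA synthetase, with 3540 on the G-TPP array and 1421 on the DMSO array, 2.49-fold higher; it is also known as a target of ATF4. The immunoproteasome subunit gene PSMB10 had 321 with G-TPP and 447 with DMSO, 1.39-fold lower. TAP1, the peptide transporter of antigen presentation, had 563 with G-TPP and 782 with DMSO, also 1.39-fold lower, by 3 probe sets with identical values. ERAP1, a peptide-trimming enzyme of the ER, was 1.31-fold higher.

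The 3 measured STAT genes lay within 0.20 of 0 in log2 difference, as did IRF9 and as did 49.7% of kept genes. STAT3, which carries signals of the IL6 receptor family, was the brightest of all, with 4119.9 on the G-TPP array and 4310.5 on the DMSO array, a log2 difference of -0.07. STAT5B, which serves growth hormone and prolactin receptors, had 475 on the G-TPP array and 515 on the DMSO array, a log2 difference of -0.12. STAT6, the factor of interleukin 4 and 13 signals, had 306 on the G-TPP array and 308 on the DMSO array, a log2 difference of -0.01. Their ranks among kept genes were at the percentiles 46.6, 38.9 and 54.3. STAT6 was dimmer than the endothelial marker CLDN5, which had 328 on the G-TPP array and 372 on the DMSO array, though 4 of 6 endothelial markers were at or below the olfactory receptor level. Background may thus make up part of the flat STAT6 value, which was not tested. STAT3 and STAT5B are neighbours on chromosome 17, with STAT5A between them.

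Among receptors upstream of the STAT proteins several had higher values on the G-TPP array. Of 28 receptor genes asked for 16 were kept, with a median log2 difference of 0.28. At least 1.5-fold higher were 6, where 7.37% of all kept genes were, and 0 were at least 1.5-fold lower, where 3.23% were. By their G-TPP value alone, 4 of the 16 passed the filter, so the filter fixed the direction of these 4. PRLR, IL20RB and CSF2RA, all among the 6 past 1.5-fold, belong to these 4. PRLR, the prolactin receptor, had 584 on the G-TPP array and 143 on the DMSO array. The DMSO value was under the olfactory receptor level, and the gene was at least 3.39-fold higher when that level stood in for it. IL20RB, a receptor chain for cytokines of the IL10 family that signal to STAT3, had 408 with G-TPP and 161 with DMSO, at least 2.36-fold higher by the same rule. IL7R, which signals to STAT5, had 1927 with G-TPP and 785 with DMSO, 2.46-fold higher.

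The shared chain of the IL6 receptor family, gp130, is encoded by IL6ST, which had 3166 on the G-TPP array and 1899 on the DMSO array, 1.67-fold higher. OSMR, its partner for oncostatin M, had 1707 with G-TPP and 1101 with DMSO, 1.55-fold higher. CSF2RA, a chain of the GM-CSF receptor, was 1.80-fold higher by a pair of probe sets with identical values, and its DMSO value of 235 was under the brightness filter. The interferon gamma receptor chains pointed apart. IFNGR1 had 688 with G-TPP and 467 with DMSO, a log2 difference of 0.56, and IFNGR2 had 474 with G-TPP and 702 with DMSO, a log2 difference of -0.57. The type I interferon receptor genes IFNAR1 and IFNAR2 had log2 differences of -0.20 and -0.11.

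Of the Janus kinases JAK1 and TYK2 were kept. JAK1, a partner of gp130 and of the interferon receptors, had 1707 on the G-TPP array and 1141 on the DMSO array, a log2 difference of 0.58 and just short of 1.5-fold. TYK2 had 467 with G-TPP and 518 with DMSO. JAK2 and JAK3 were below the olfactory receptor level on both arrays. Ligand genes were mostly dim, with 16 of 22 measured at or below that level on both arrays and 5 kept. None of the 5 was at 1.5-fold, where 7.37% of all kept genes were higher and 3.23% lower. EPO and CSF3 were 1.28-fold and 1.22-fold lower, IL11 was 1.18-fold lower and LIF 1.16-fold higher. EPO and IL11 passed the filter by their DMSO value alone and LIF by its G-TPP value alone, so the filter fixed the direction of these 3.

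**Figure D3:**
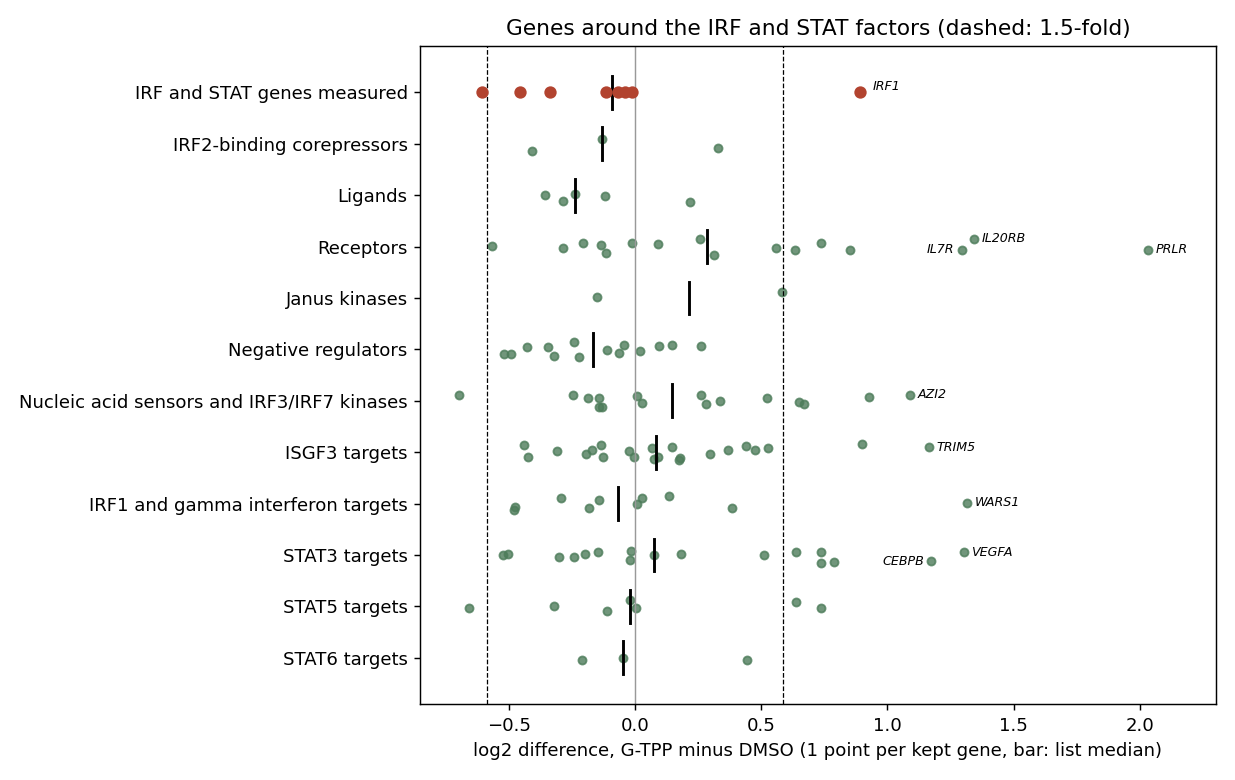
Log2 difference, G-TPP minus DMSO, with 1 point per kept gene, the list median as a bar and 1.5-fold as dashed lines; the top line holds the 8 measured IRF and STAT genes. Receptors reach furthest to the right, with PRLR at 2.03, while 10 of the 14 negative regulators lie below 0; the values of PRLR and IL20RB rest on DMSO intensities under the olfactory receptor level.

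Inhibitors of STAT signalling gave small differences. Of 18 asked for, 14 were kept, 0 of them past 1.5-fold in either direction (7.37% of all kept genes were higher and 3.23% lower), 10 of them below 0, where 55.9% of all kept genes were, and the median log2 difference was -0.16. USP18, which blocks the type I interferon receptor, had 1012 on the G-TPP array and 1451 on the DMSO array, 1.43-fold lower. PIAS3, a known inhibitor of STAT3, had 486 with G-TPP and 682 with DMSO, 1.40-fold lower. PIAS1 and PIAS4, of the same SUMO ligase family, were 1.35-fold and 1.27-fold lower. SOCS3, a feedback inhibitor that STAT3 induces, was dim with 193 on the G-TPP array and 189 on the DMSO array, and did not pass the filter. The corepressors that bind IRF2 also pointed apart, IRF2BP1 being 1.33-fold lower and IRF2BP2 1.26-fold higher, with IRF2BPL at a log2 difference of -0.13.

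Of 21 known targets of STAT3 asked for 17 were kept, with a median log2 difference of 0.07. They held 6 genes at least 1.5-fold higher (7.37% of all kept genes were) and 0 at least 1.5-fold lower (3.23%). The angiogenic factor gene VEGFA had 3021 on the G-TPP array and 1224 on the DMSO array, 2.47-fold higher. CEBPB, a transcription factor gene, had 2062 with G-TPP and 914 with DMSO, 2.26-fold higher; both genes are also known to answer to cell stress. The survival genes MCL1 and BCL2L1 were 1.73-fold and 1.55-fold higher, and the kinase gene PIM1 was 1.67-fold higher. IL6ST, the gp130 gene already counted among the receptors, was 1.67-fold higher. In all 9 of the 17 were above 0 and 8 below, with JUNB, an AP-1 subunit gene, 1.44-fold lower and TIMP1, a metalloproteinase inhibitor gene, 1.42-fold lower.

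Targets of STAT5 and STAT6 gave fewer values. Of 10 STAT5 targets 7 were kept, with a median log2 difference of -0.02. As 6 of the 10 are also on other lists, this list is not separate from them. At least 1.5-fold higher, as were 7.37% of all kept genes, were 2 of the 7, BCL2L1 and PIM1, which are also on the STAT3 list. At least 1.5-fold lower, as were 3.23% of all kept genes, was ID1, an inhibitor of differentiation factors, with 517 on the G-TPP array and 815 on the DMSO array. CISH, a feedback inhibitor typical of STAT5, was 1.25-fold lower. Of 10 STAT6 targets 3 were kept, with log2 differences of 0.45 for GATA3, -0.05 for TGM2 and -0.21 for CCL17.

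Other IRF and STAT genes that were measured were dim, which is a description and not a result about the families. The 9 genes of this report were chosen with earlier results of these data known, so the contrast in brightness may follow from that choice. IRF4, IRF5 and IRF8, which belong mainly to blood cells, lay between 124 and 134 on the G-TPP array and between 119 and 154 on the DMSO array. STAT4 and STAT5A had 88.3 and 142 with G-TPP and 94.5 and 145 with DMSO. All 5 were under the olfactory receptor level on both arrays, so no fold is given for them.

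Markers of the labelled glioma cells were bright in part, and 9 of 11 were kept. VIM, CD44 and TNC, found in mesenchymal and glioma cells, were bright at 6494, 7614 and 5114 with G-TPP and 7146, 8013 and 4743 with DMSO. The astrocyte marker GFAP was dim at 232 with G-TPP and 245 with DMSO. S100B, of the same list, was under the olfactory receptor level at 122 with G-TPP and 130 with DMSO. CHI3L1 did not pass the filter, at 220 with G-TPP and 221 with DMSO. SOX2 and SOX9, factors of neural stem cells and glia, were 2.72-fold and 1.98-fold lower with G-TPP, NES was 1.42-fold lower and SLC1A3, a glutamate transporter of astrocytes, was 1.56-fold higher. Immune markers, which matter because IRF and STAT genes are abundant in blood cells, were at or below the olfactory receptor level on both arrays for 8 of 13 measured genes. The leukocyte marker PTPRC had 32.9 on the G-TPP array and 34.8 on the DMSO array. The immune list summed to 2270 on the G-TPP array and 2564 on the DMSO array, and its 4 kept genes, CD68, TYROBP, SPI1 and NKG7, had log2 differences between -0.47 and -0.14; TYROBP passed the filter by its DMSO value alone. Of 6 endothelial markers CDH5 and CLDN5 were kept, with log2 differences of -0.07 and -0.18.

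The directions of IRF1, IRF2, IRF3 and IRF7 were kept under every alternative that gave them a value. With 1 probe set per gene, the other filters and the mean over probe sets repeat the reported value by construction. A pseudocount cannot change a sign either, so only centring, quantile normalization and the olfactory receptor subtraction could have changed a direction. IRF1 had a log2 difference between 0.85 and 1.17 over 7 alternatives that gave it a value; the highest came from subtracting the olfactory receptor median, chosen after seeing the data, and made it 2.24-fold higher. IRF2 stayed between -0.65 and -0.56 over 8 alternatives and was 1.48-fold lower, short of 1.5-fold, when the median of all kept genes was set to 0. IRF3 lay between -0.49 and -0.41 and IRF7 between -0.39 and -0.26. IRF9 and STAT6 took either sign.

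**Figure D4:**
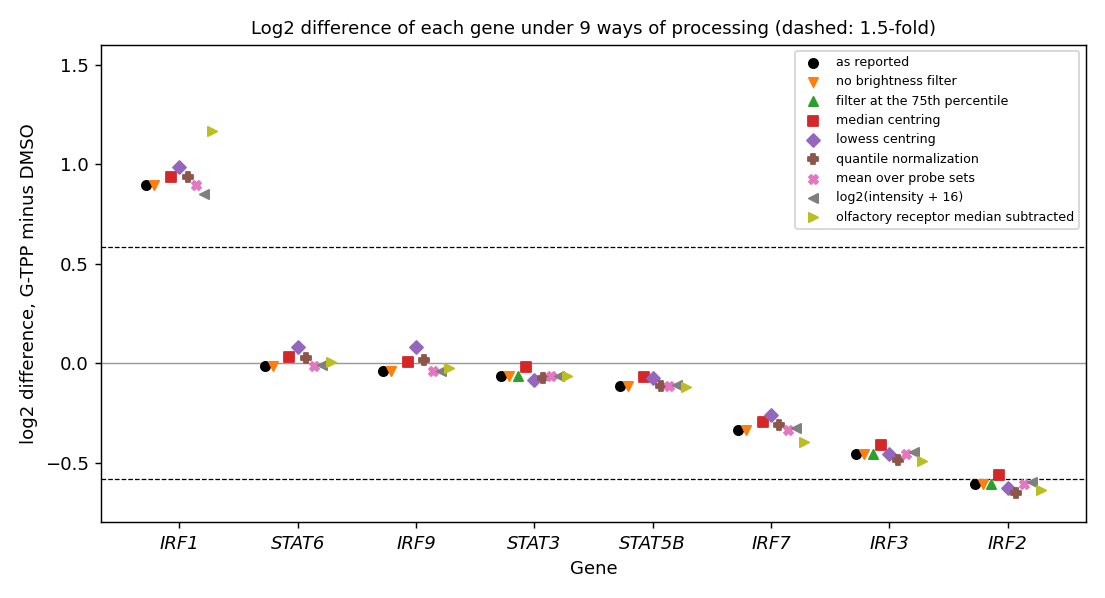
Log2 difference, G-TPP minus DMSO, of each measured IRF and STAT gene as reported (black) and under 8 alternatives (coloured symbols), with 1.5-fold as dashed lines. IRF1 stays above the upper dashed line in all 7 alternatives that gave it a value, and IRF2 sits at the lower dashed line. The alternatives of each of the other 6 genes lie close together. The filter and probe-set-mean settings repeat the reported values by construction.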

How the data were processed

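Expression was measured on Affymetrix arrays with cRNA from 6 µg of total RNA, 1 array per condition, per the labels' protocols. The deposited intensities are on a linear scale, as their range shows, and were made by the authors with RMA in Affymetrix Expression Console 1.1.2, per the submitters' processing notes, with the genome build and any filter not given in the sources used here. Of 33297 probe sets 19460 had 1 gene symbol in the platform annotation, 1754 several and 12083 none listed; 19429 of the first kind were matched by gene ID to the RefSeq table (GRCh38.p14) for current symbols. The brightest of several probe sets of a gene was used.

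The log2 difference G-TPP minus DMSO was computed without a pseudocount. With 1 array per group there is no test, so genes were counted by size at 1.5-fold and 2-fold, and the number of arrays limits the precision. A gene was given a bound where 1 array lay under the level of the olfactory receptors (their 95th percentile), and no fold where both did. The genes and the 16 lists were chosen with earlier results of these data known. Named from each list were its kept genes at 1.5-fold and the 4 with the largest absolute difference, or all genes of a list of up to 4. TBK1, IKBKE, IFNB1, MX1, IFIT1, SOCS3, JUNB, TIMP1, PTPRC, VIM, CD44, TNC, GFAP and the interferon receptor genes were added for their roles after their values were seen. IFITM1, IFITM2, IFITM3, S100B and CHI3L1 were also added after their values were seen. The code was tested on simulated data. Alternatives were other filters, centring, quantile normalization, a mean over probe sets, a pseudocount of 16 and a size of 1.3-fold. Computation used Python 3.11.15, pandas 2.3.3 and numpy 2.4.6, lowess came from statsmodels 0.14.6, and plots from matplotlib 3.10.9.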

Additional observations from a re-analysis of the deposited data

How the results depend on the processing

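Of 59 values of single IRF and STAT genes under 8 alternatives, 58 moved by less than 0.18 on the log2 scale. That size is the scatter of probe sets of 1 gene. The other was IRF1 with the olfactory receptor median subtracted (1.17), and none past 1.5-fold changed sign. Each gene has 1 probe set, and a filter does not alter a gene's own value. The filter and probe-set-mean settings therefore repeat the reported values by construction, and their part of the 58 is no check. The filter at the 75th percentile left 3 of the genes, IRF2, IRF3 and STAT3, with a median log2 difference of -0.46, and 1 of them past 1.5-fold; fewer genes enter by construction. Under that filter the kept genes at least 1.5-fold and 2-fold lower numbered 194 and 37, against 358 and 61 in the reported setting. Setting the median of all kept genes to 0 left 1 of the 8 genes, IRF1, past 1.5-fold. Lowering the size to 1.3-fold gave 3 genes. No paired analysis was possible because each condition has 1 array, and for the same reason no replicate could be left out. Dim genes near the olfactory receptor level have folds drawn towards 1 by background.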

Other observations

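Several genes around the IRF and STAT factors differed between the arrays while under the olfactory receptor level on both, so no fold is given; they were picked after their values were seen. IL6, the cytokine that signals through gp130 to STAT3, had an intensity of 153 on the G-TPP array and 90.3 on the DMSO array. IFIT2, an interferon-induced gene, had 123 with G-TPP and 65.2 with DMSO. CD274, which encodes the immune checkpoint ligand PD-L1 and is known as an IRF1 target, had 104 with G-TPP and 58.7 with DMSO. CASP1, the inflammatory caspase gene, had 116 with G-TPP and 74.8 with DMSO, and CCL26, a STAT6 target, had 154 with G-TPP and 89.2 with DMSO. Other genes so dim lay the other way. IGF1 had 90.5 with G-TPP and 120.2 with DMSO, IFNL1 123 with G-TPP and 159 with DMSO, IFIH1 137 with G-TPP and 169.7 with DMSO, and IFIT1 79.1 with G-TPP and 107 with DMSO.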
